A study of Mus musculus with 6 samples.

Results

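Amino acid and neurotransmitter transporter genes were followed in mouse dorsal root ganglia, the clusters of sensory nerve cell bodies beside the spinal cord, after injury of the kidney. The genes were taken from the deposited table by name. They are all genes of the solute carrier families Slc1, Slc6, Slc7, Slc17, Slc32, Slc36 and Slc38 except Slc6a4, Slc6a12, Slc6a13, Slc1a3 and Slc7a11, which gave 67 of the 57180 genes in the table. Of these, 63 are transporter genes and 4 (Slc6a19os, Slc7a6os, Slc36a1os and Slc36a3os) are genes named for lying opposite a transporter gene.

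The 6 libraries came from wild-type (WT) mice, 3 per group, and the labels give no strain, sex or age. In I/R (ischemia-reperfusion) mice the left renal pedicle was clamped for 28 min and released, and the right kidney was taken out. Sham mice had the surgery without the clamp, and removal of their right kidney is not stated separately. Ganglia from thoracic level 8 to lumbar level 2 were collected 24 h after surgery, and the comparison of I/R with sham asks how these ganglia change after renal I/R. The labels do not say how many ganglia each mouse gave or that each library is 1 mouse, so the p-values measure the spread between these libraries.

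These families move amino acids and transmitters across membranes. Slc1 and Slc6 carriers use the sodium gradient to take up glutamate, GABA, glycine, creatine, taurine and neutral amino acids, and so end transmission or feed the cell. Many Slc7 carriers are light chains that reach the cell surface only with a heavy chain, Slc3a1 or Slc3a2, and exchange large neutral or cationic amino acids. Several Slc17 carriers and Slc32a1 load vesicles with transmitter. Some Slc36 carriers move small amino acids with protons, and Slc38 carriers move glutamine and other neutral amino acids. Sensory neurons of the ganglion release glutamate and are wrapped by satellite glia. The domain annotation in the authors' deposited table followed these families: all 18 Slc6 transporter genes carry the sodium:neurotransmitter symporter domain, all 6 Slc1 genes the sodium:dicarboxylate symporter domain, and all genes of Slc32, Slc36 and Slc38 the same transmembrane amino acid transporter domain.

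Library totals ran from 19092650 to 22010227 expected counts, the authors' estimated reads per gene. A count of 3, the most that a count of 0 allows, was 0.137 to 0.154 in CPM (counts relative to the scaled size of the library). The 9 sensory neuron markers summed to 19820 to 20730 CPM in sham and 17390 to 21820 CPM in I/R, and the 7 markers of spinal cord neurons to 2.35 to 3.39 CPM over all 6 libraries. Skeletal muscle genes summed to 481, 13.6 and 247 CPM in sham 1 to 3 and to 4.94 to 10.5 CPM in I/R, so sham 1 and sham 3 stand apart in non-ganglion RNA. I/R 3 stands apart by gene length. Among tested genes of at least 3000 bases its log2 level was 0.11 above the mean of I/R 1 and I/R 2 in the median, and among those under 1500 bases the median difference was -0.25. Because the tissue was sequenced in bulk, fewer cells of a type and less RNA per cell cannot be told apart.

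Most of these transporter genes differed little between I/R and sham ganglia, and 2 passed the test, Slc6a19 upward and Slc6a20a downward. After the filter on low counts 43 of the 67 genes were tested, and the other 24 had too few counts. With edgeR's quasi-likelihood test and an adjusted p under 0.05, the 2 calls were 4.65% of the tested members, against 1.15% of all 16346 genes tested (0.722% called higher and 0.428% called lower). An unadjusted p under 0.05 was reached by 13 members, 8 higher and 5 lower, which is 30.2% against 10.5% of all genes. The 3 I/R values lay all above the 3 sham values for 13 members and all below for 6, together 44.2% of those tested against 17.1% of all genes (9.23% all above and 7.83% all below). The log2 fold change of 29 tested members was under 0.25 in size. In simulated data most 1.5-fold changes were missed (31.3% found), so a gene left uncalled may still differ by that much.

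The median log2 fold change of the tested members was 0.11, against 0.0001 over all genes, and 27 of 43 lay above 0. I/R 3 held the highest value of 22 tested members, 51.2%, against 24.6% of all genes tested. Sham 3 held the highest value of 2, 4.65%, against 21.1% of all genes. It held the lowest value of 16 of the 43, against 22.3% of all genes. Tested members were also longer than other genes, with a median of 3607 bases against 2842. Among genes of 3000 bases or more the median log2 fold change was 0.15 for 27 members and 0.03 for all 7622 genes. Without I/R 3 the members' median was 0.08, and without sham 3 it was 0.12. The part of gene length, of I/R 3 and of sham 3 in these small upward shifts was not tested.

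**Figure D1:**
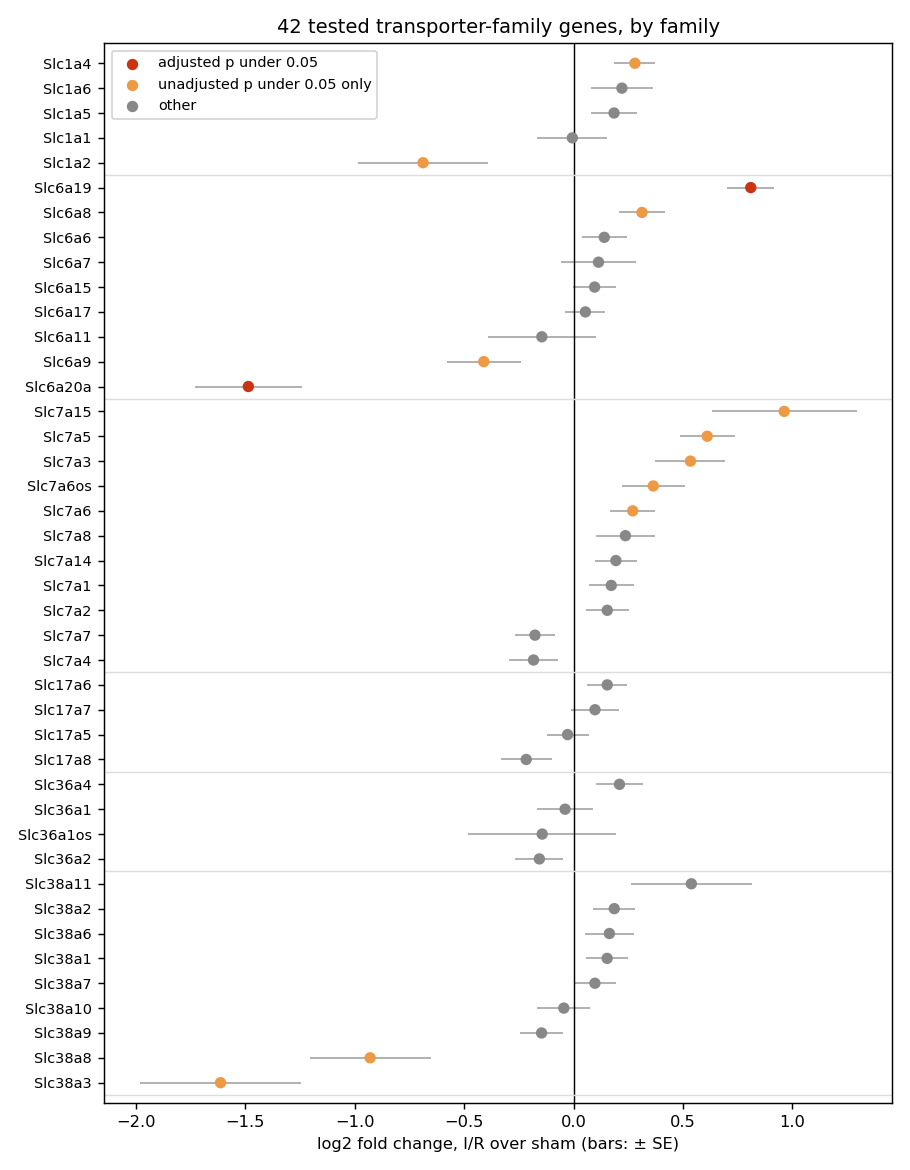
Log2 fold change of I/R over sham, with ± SE bars, for 42 of the 43 tested genes, grouped by family. Red points passed at an adjusted p under 0.05 and orange points only at an unadjusted p under 0.05. Slc6a19 at 0.81 and Slc6a20a at -1.49 are the 2 red points, and most others lie close to 0.

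Slc6a19 encodes B0AT1, a sodium-driven carrier of neutral amino acids best known from the kidney tubule and the intestine. It measured 21.5, 21.96 and 21.5 CPM across sham 1 to 3, against 34.5, 37.4 and 42.0 CPM across I/R 1 to 3. The sham libraries were nearly equal, and every I/R value lay well above them. The change was 1.75-fold, a log2 fold change of 0.81 ± 0.11 (SE, adjusted p = 0.00515 in edgeR's test, n = 3 per group). Whichever single library was left out, Slc6a19 kept an adjusted p between 0.00511 and 0.0414. It missed the threshold with the skeletal muscle level as a covariate (adjusted p = 0.355) and with sham 2 alone against I/R (adjusted p = 0.236), where its log2 fold changes were 0.81 and 0.77. DESeq2, which called 1.91% of all genes, and limma-voom, which called 1.08%, also called it (adjusted p = 5.44e-07 and 0.00624). The fit of sham 2 alone called 0.185% of the genes it tested.

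The genes beside Slc6a19 were near 0 or level between the groups. Slc6a18, the neighbouring carrier gene of the same family, had 1 count in all of sham and 2 in all of I/R. Slc12a7, on the other side, differed by -0.02 on the log2 scale (adjusted p = 0.97 in edgeR's test). Slc6a19os, which is opposite Slc6a19, had no count in sham and 1, 2 and 1 counts in I/R 1 to 3. The strand setting of the counting is not given in the sources used here, so reads of Slc6a19 and Slc6a19os may not be separable.

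Slc6a20a encodes SIT1, a sodium-driven carrier of proline and related imino acids. Its level was 2.60, 2.90 and 2.67 CPM across sham 1 to 3, against 0.989, 0.726 and 1.19 CPM across I/R 1 to 3. The groups did not overlap, and the I/R values were far below the sham values. The gene fell by 1.49 ± 0.24 on the log2 scale, 2.80-fold lower in I/R, with adjusted p = 0.0178 in edgeR's test. These levels rest on 51.6 to 58.0 expected counts per sham library and 15 to 25.5 per I/R library. Leaving out any one library except I/R 3 ended the call (adjusted p between 0.0504 and 0.0804), as did fits with the muscle covariate (0.299) and with sham 2 alone (0.287), and the log2 fold change stayed between -1.66 and -1.34 in all of these fits.

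Slc6a20b, its neighbour and near copy, had 11 counts in each group. The counts of both genes were fractional in sham 2, sham 3, I/R 1 and I/R 3, so reads may have been divided between them or with other genes. Summed, the pair stood at 2.91 ± 0.26 (sham) against 1.14 ± 0.28 CPM (I/R) (SD, n = 3). Markers of fibroblasts and meninges moved the same way. All 8 such genes stood lower in I/R. Of these 7 were called, among them Ptgds, Cldn11 and Gjb6, against 0.428% of all genes called lower. The summed level of the 8 markers was 687 to 833 CPM in sham and 349 to 413 CPM in I/R. Their part in the fall of Slc6a20a was not tested.

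The promoters of both called genes are shown because they are the members that changed, in opposite directions. Each is the stretch of 250 bases before the start that RefSeq gives on GRCm38.p6, 5′ to 3′ on the gene's strand, with every CG step in capitals. That build differs from the GRCm39 build named for these data.
Slc6a19, chr13:73692637-73692886, minus strand: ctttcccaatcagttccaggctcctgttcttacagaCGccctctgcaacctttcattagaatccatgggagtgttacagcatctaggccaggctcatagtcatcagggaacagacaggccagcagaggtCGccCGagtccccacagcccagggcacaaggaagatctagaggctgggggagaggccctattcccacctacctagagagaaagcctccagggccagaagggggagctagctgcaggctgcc
Slc6a20a, chr9:123678833-123679082, minus strand: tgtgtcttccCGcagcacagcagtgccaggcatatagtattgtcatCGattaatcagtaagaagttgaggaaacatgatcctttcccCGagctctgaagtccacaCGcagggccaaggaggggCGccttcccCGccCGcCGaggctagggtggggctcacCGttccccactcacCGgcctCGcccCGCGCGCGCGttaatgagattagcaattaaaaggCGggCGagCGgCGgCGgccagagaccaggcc
The Slc6a19 window held 3 CG steps and the Slc6a20a window 21, against a median of 6 over 32851 promoters. The start used for Slc6a19 lies inside the span that RefSeq gives for the gene, and which start ganglia use was not examined.

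Slc6a17 and Slc6a15, the other tested neutral amino acid carriers of Slc6, were abundant and were not called. Slc6a17, a carrier of synaptic vesicles in neurons, stood at 348 ± 28.0 (sham) against 361 ± 9.50 CPM (I/R), a log2 fold change of 0.05 ± 0.09 (adjusted p = 0.877 in edgeR's test). Slc6a15, which carries branched-chain amino acids and proline in neurons, stood at 125 ± 11.1 and 134 ± 6.93 CPM (0.10 ± 0.10). In both genes the sham and I/R ranges overlapped. Slc6a14, Slc6a16 and Slc6a21 had from 0 to 14 counts over a group and were not tested.

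Among the Slc7 light chains, values leaned higher in I/R without passing the test. Slc7a5 encodes LAT1, the exchanger of leucine and other large neutral amino acids. It measured 74.4, 80.2 and 60.8 CPM across sham 1 to 3, against 98.2, 110 and 121 CPM across I/R 1 to 3. Every I/R value lay above every sham value, and the log2 fold change was 0.61 ± 0.12 (adjusted p = 0.0546 in edgeR's test). DESeq2 (adjusted p = 0.00125), a robust dispersion fit (0.0323) and the fit without a filter on low counts (0.00102, with 1.68% of all genes called) called it. With sham 2 alone against I/R its log2 fold change was 0.43 (adjusted p = 0.661).

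Slc3a2, the heavy chain that LAT1 needs, showed no overlap between groups either. Its levels were 135, 134 and 128 CPM across sham 1 to 3, against 156, 161 and 140 CPM across I/R 1 to 3, a log2 fold change of 0.21 ± 0.09 (adjusted p = 0.47 in edgeR's test). Slc3a1, the heavy chain of the kidney cystine carrier, lay between 0.246 and 0.643 CPM. Its light chain Slc7a9 had no counts at all.

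Of the 5 tested light chains 4 lay above 0 and none was called. Slc7a6, an exchanger of cationic against neutral amino acids, stood at 35.9 ± 1.20 (sham) against 43.3 ± 4.36 CPM (I/R) (0.27 ± 0.10 on the log2 scale, with adjusted p = 0.376 in edgeR's test). Slc7a6os, which encodes another kind of protein from the opposite strand, stood 0.36 higher (adjusted p = 0.405), and reads of the pair may not be separable. Slc7a8, the LAT2 light chain, differed by 0.24 ± 0.13 with overlapping groups. Slc7a15, a little-known light chain of rodents, stood at 0.636 ± 0.167 and 1.25 ± 0.312 CPM (0.96 ± 0.33, adjusted p = 0.306). Slc7a7, the y+LAT1 light chain found in macrophages and epithelia, was the exception, at 83.7 ± 4.68 (sham) against 74.0 ± 3.19 CPM (I/R) (-0.18 ± 0.09, adjusted p = 0.554), with all I/R values below all sham values.

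**Figure D2:**
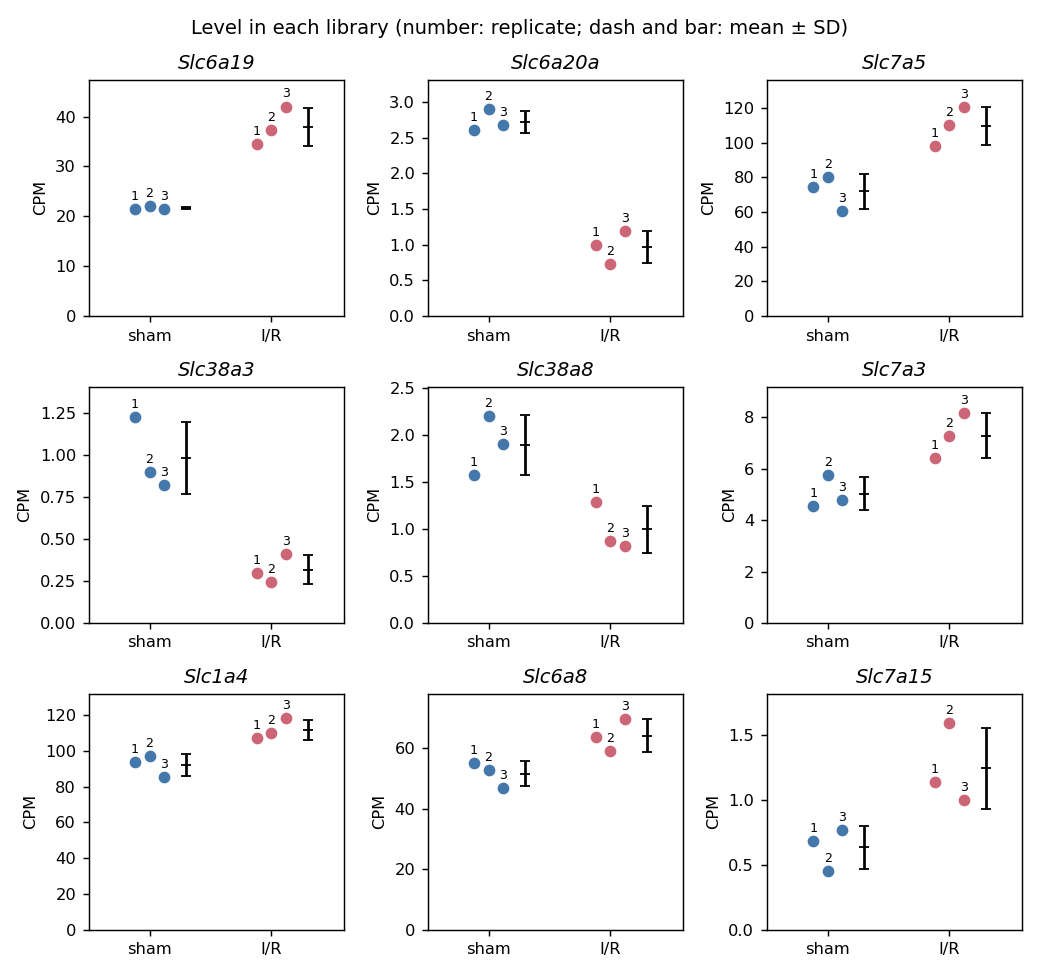
CPM of 9 transporter genes in each library, with sham points in blue and I/R points in red, the replicate number above each point, and the mean ± SD beside each group of 3. Slc6a19 and Slc6a20a were called, and the other 7 genes had an unadjusted p under 0.05 only. In all 9 panels the groups do not overlap. The genes were picked from members with an unadjusted p under 0.05, which favors separate groups. Of all tested members 44.2% showed no overlap, against 17.1% of all genes.

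Of the cationic amino acid carriers, which bring in arginine and lysine, and their relatives, all but Slc7a3 differed little. Slc7a3, the neuronal carrier CAT3, measured 4.57, 5.75 and 4.78 CPM across sham 1 to 3, against 6.43, 7.26 and 8.17 CPM across I/R 1 to 3. The groups were apart, with a log2 fold change of 0.53 ± 0.16 (adjusted p = 0.214 in edgeR's test). Slc7a1, the widespread carrier CAT1, stood at 171 ± 8.20 and 193 ± 20.6 CPM (0.17 ± 0.10), and Slc7a2, the carrier CAT2, at 72.6 ± 4.63 and 80.8 ± 5.65 CPM (0.15 ± 0.10). Slc7a14, a lysosomal relative, averaged 164 ± 0.714 (sham) against 188 ± 17.4 CPM (I/R), with every I/R value above every sham value. Slc7a4, a relative without known transport, was lower in I/R by 0.18 ± 0.11 on the log2 scale with overlapping groups. Neither edgeR nor DESeq2 nor limma-voom called any of the 5, and 1, Slc7a3, had an unadjusted p under 0.05.

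The glutamate carriers Slc1a1, Slc1a2, Slc1a6 and Slc1a7 were scarce in this tissue, and none of the 3 that passed the filter was called. Slc1a3 is not among the genes examined. Slc1a1, the neuronal carrier EAAT3, stood at 5.69 ± 0.797 (sham) against 5.67 ± 0.464 CPM (I/R) (-0.01 ± 0.16 on the log2 scale, with adjusted p = 0.994 in edgeR's test). Slc1a6, the carrier EAAT4 of cerebellar neurons, stood at 6.03 ± 0.320 and 7.03 ± 0.719 CPM (0.22 ± 0.14). Slc1a7, the carrier EAAT5 of the retina, had counts of 3, 1 and 0 across sham 1 to 3 against 7, 10 and 16 across I/R 1 to 3. Its I/R over sham ratio was 7.78 (95% counting interval 2.77 to 30.3). The filter removed Slc1a7 from the main test, and edgeR without a filter called it (adjusted p = 0.0332). Intervals of this kind cover counting error only. They leave out the variation between libraries of a group, and reads that carry no molecular identifier can be copies of 1 molecule.

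The neutral exchangers of the same family were far more abundant. Slc1a4, the serine and alanine exchanger ASCT1, measured 93.4, 97.0 and 85.1 CPM across sham 1 to 3, against 107, 110 and 118 CPM across I/R 1 to 3. Its groups did not overlap, with a log2 fold change of 0.28 ± 0.09 (adjusted p = 0.286 in edgeR's test). Slc1a5, the glutamine exchanger ASCT2, stood at 39.6 ± 1.89 and 45.0 ± 4.69 CPM (0.18 ± 0.11) with overlapping groups.

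Slc1a2, Slc6a5, Slc7a10 and Slc32a1, carriers typical of central glia and inhibitory neurons, were highest in sham 1 and sham 3. Slc6a11, a glial GABA carrier, did not follow this pattern. It measured 10.07, 8.303 and 5.605 CPM across sham 1 to 3, against 5.338, 6.973 and 9.354 CPM across I/R 1 to 3. Slc1a2, the astrocyte glutamate carrier GLT-1, measured 12.5, 4.70 and 8.43 CPM across sham 1 to 3, against 4.65, 6.004 and 5.25 CPM across I/R 1 to 3. Sham 1 and sham 3 were high and sham 2 lay among the I/R values, so the log2 fold change of -0.69 ± 0.30 (adjusted p = 0.455 in edgeR's test) became 0.15 against sham 2 alone. Slc6a5, the glycine carrier GlyT2 of inhibitory neurons, had counts of 16, 0 and 15 across sham 1 to 3 against 3, 3 and 2 across I/R 1 to 3. Slc7a10, a carrier of D-serine and glycine in astrocytes, had 8, 0 and 6.04 expected counts in sham and 1, 2 and 3 in I/R. Slc32a1, the vesicular carrier of GABA and glycine, had 1.28, 0 and 3.91 expected counts in sham and none in I/R.

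Summed levels of marker genes were high in the same libraries. Gfap and Mobp, genes of astrocytes and oligodendrocytes, summed to 33.1, 5.35 and 20.7 CPM in sham 1 to 3 and to 4.003, 6.88 and 5.34 CPM in I/R 1 to 3. All 7 listed markers of spinal cord glia and oligodendrocytes summed to 44.9, 10.3 and 30.4 CPM in sham 1 to 3. In I/R 1 to 3 they summed to 10.8, 14.5 and 13.3 CPM. In I/R Opalin and Olig2 were at 0 in every library, Mog had 1, 0 and 0 counts in I/R 1 to 3, and Olig1 had 0, 4 and 1. Their sham counts are not given here, so these genes do not show the pattern one by one. Aqp4, a water channel of astrocytes, was level, with means of 7.21 CPM (sham) and 7.39 CPM (I/R). The muscle sums given above were high in sham 1 and sham 3 too. The part of RNA from outside the ganglion in Slc1a2, Slc6a5, Slc7a10 and Slc32a1 was not tested.

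**Figure D3:**
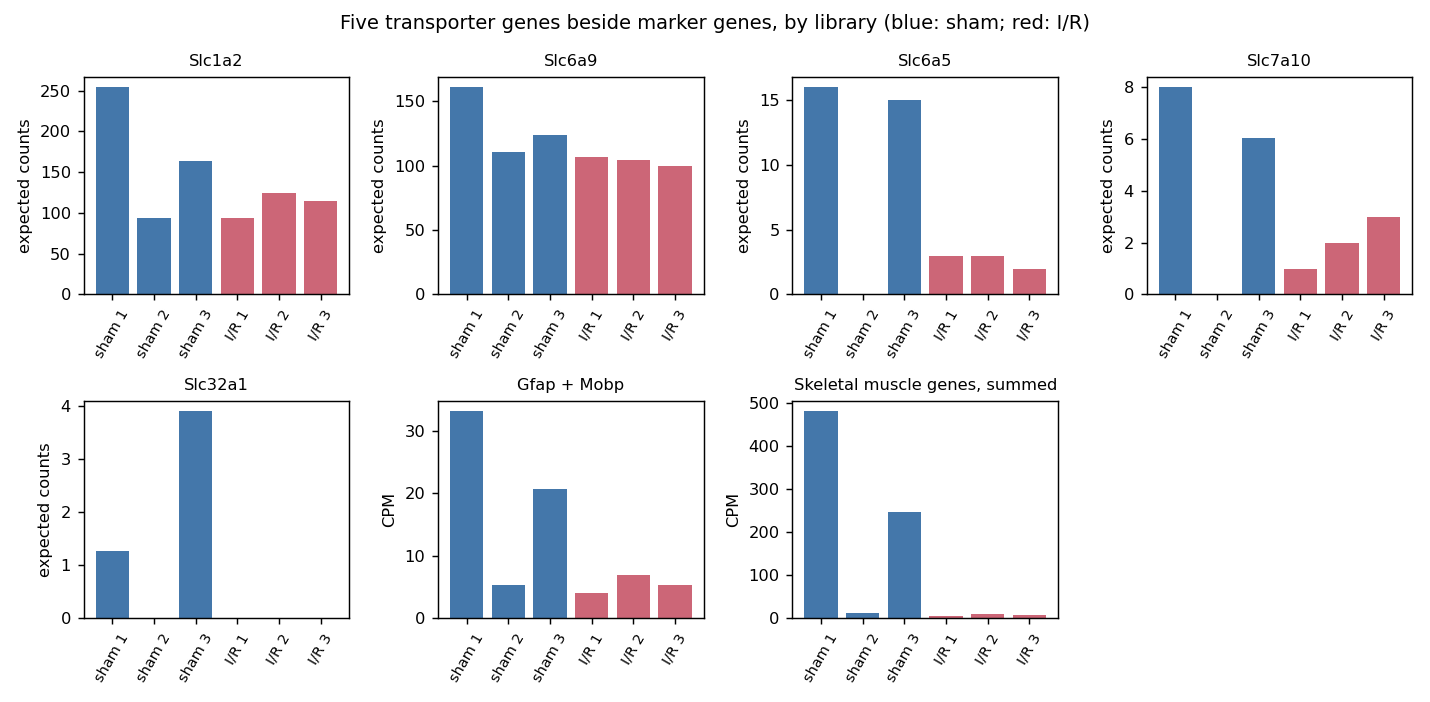
Expected counts of Slc1a2, Slc6a9, Slc6a5, Slc7a10 and Slc32a1 in each library, beside the summed CPM of Gfap and Mobp and of 10 skeletal muscle genes, with sham bars in blue and I/R bars in red. In all 7 panels sham 1 and sham 3 are the tallest bars, and sham 2 lies close to the I/R libraries or at 0.

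Slc6a9 and Slc6a11, which clear glycine and GABA, did not pass the test. Slc6a9, the glycine carrier GlyT1, measured 7.91, 5.55 and 6.38 CPM across sham 1 to 3, against 5.29, 5.08 and 4.56 CPM across I/R 1 to 3. The I/R values were the lowest, with a log2 fold change of -0.41 ± 0.17 (adjusted p = 0.428 in edgeR's test). Slc6a11, the glial GABA carrier GAT3, stood at 7.99 ± 2.25 (sham) against 7.22 ± 2.02 CPM (I/R), a difference of -0.14 ± 0.25 on the log2 scale with overlapping groups. Slc6a2, which takes up noradrenaline, had 18 counts over sham and 16 over I/R, and Slc6a3, which takes up dopamine, had none.

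Genes that load glutamate into vesicles were abundant and were not called. Slc17a7, the carrier VGLUT1, measured 277, 268 and 216 CPM across sham 1 to 3, against 272, 282 and 262 CPM across I/R 1 to 3, and the groups overlapped (0.10 ± 0.11 on the log2 scale, with adjusted p = 0.81 in edgeR's test). Slc17a6, the carrier VGLUT2, stood at 177 ± 7.21 and 197 ± 14.6 CPM (0.15 ± 0.09, adjusted p = 0.624). Slc17a8, the carrier VGLUT3 of a small class of touch neurons, stood at 16.2, 17.5 and 18.9 CPM across sham 1 to 3, against 13.99, 15.1 and 16.2 CPM across I/R 1 to 3. Its highest I/R value and lowest sham value nearly touched (-0.22 ± 0.12, adjusted p = 0.564). Slc17a9, the vesicular carrier of ATP, had 10 counts over sham and 29 over I/R, a 2.74-fold ratio (95% counting interval 1.30 to 6.29), with every I/R library above every sham library. It was not called in the fit without a filter on low counts. Slc17a5, the lysosomal sialic acid carrier, stood at 26.9 ± 0.569 and 26.4 ± 1.05 CPM.

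The system N carriers Slc38a3 and Slc38a5, which export and import glutamine and histidine, had low levels in both groups, and every I/R value lay below every sham value. Slc38a3 measured 1.23, 0.900 and 0.823 CPM across sham 1 to 3, against 0.297, 0.242 and 0.411 CPM across I/R 1 to 3. The groups were well apart, but the log2 fold change of -1.61 ± 0.37 did not pass (adjusted p = 0.0852 in edgeR's test). Slc38a5 had 8, 6 and 6 counts in sham and 1, 0 and 0 in I/R, which is 21.2 times as many in sham (95% counting interval 3.39 to 879). It was removed by the filter, and edgeR without a filter called both Slc38a3 (adjusted p = 0.0414) and Slc38a5 (0.0431). DESeq2 with the filter did not call Slc38a3 (adjusted p = 0.163).

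System A carriers, which take up glutamine and alanine with sodium, were abundant. Slc38a2 measured 226, 237 and 236 CPM across sham 1 to 3, against 245, 258 and 293 CPM across I/R 1 to 3. Every I/R value was higher, by 0.19 ± 0.09 on the log2 scale (adjusted p = 0.547 in edgeR's test). Slc38a1 stood at 71.6 ± 0.735 and 79.6 ± 6.96 CPM (0.15 ± 0.10), with the lowest I/R value just above the highest sham value. Slc38a4 had 27 and 26 counts over the groups and was not tested.

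The remaining Slc38 genes were not called either. Slc38a8, a glutamine carrier of the eye and brain, measured 1.57, 2.20 and 1.90 CPM across sham 1 to 3, against 1.29, 0.872 and 0.821 CPM across I/R 1 to 3. All I/R values were lower, with a log2 fold change of -0.93 ± 0.28 (adjusted p = 0.212 in edgeR's test). Slc38a9, the lysosomal arginine sensor upstream of mTORC1, stood at 46.7 ± 4.19 and 42.2 ± 1.33 CPM (-0.15 ± 0.10). Slc38a7, a lysosomal glutamine exporter, differed by 0.10 ± 0.09, Slc38a6 by 0.16 ± 0.11, Slc38a10 by -0.04 ± 0.12 and Slc38a11 by 0.54 ± 0.28, each with overlapping groups.

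The 3 tested Slc36 carriers went uncalled in edgeR, in DESeq2 and in limma-voom, and none had an unadjusted p under 0.05. Slc36a1, the lysosomal carrier PAT1 of small amino acids, measured 482, 501 and 379 CPM across sham 1 to 3, against 383, 459 and 484 CPM across I/R 1 to 3. The lowest sham and lowest I/R library were nearly equal, with a log2 fold change of -0.04 ± 0.13 (adjusted p = 0.94 in edgeR's test). Slc36a2, its neighbour, stood at 27.3 ± 2.17 and 24.5 ± 1.70 CPM (-0.16 ± 0.11). In 3 libraries the count of Slc36a1 was not whole while its sum with Slc36a2 was, within 0.011, so some reads had been divided between the pair. Slc36a4, a carrier of proline and tryptophan, stood at 57.4 ± 1.69 and 66.3 ± 8.004 CPM (0.21 ± 0.11, adjusted p = 0.543 in edgeR's test), with all I/R values above all sham values. Slc36a3 had no counts.

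Slc6a8, which takes up creatine, measured 55.0, 53.0 and 47.0 CPM across sham 1 to 3, against 63.7, 59.0 and 69.8 CPM across I/R 1 to 3. The groups did not overlap, with a log2 fold change of 0.31 ± 0.10 (adjusted p = 0.286 in edgeR's test). Slc6a6, the taurine carrier, differed by 0.14 ± 0.10 and Slc6a7, a proline carrier of glutamatergic neurons, by 0.11 ± 0.17, both with overlapping groups.

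Of the 24 untested members 9 had no count in any library: Slc17a1, Slc17a3, Slc17a4, Slc36a3, Slc6a3, Slc6a21, Slc7a9, Slc7a12 and Slc7a13. Several of these are known from kidney or intestine. Over all libraries the others held 1 to 53 counts. At 3 counts per library as the limit of detection, differences in these genes were not detectable at this depth unless large.

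Levels were also compared between genes, per length, as TPM, each gene's share of all counts after division by the deposited gene lengths. Of the 67 members 28 reached 10 TPM, 14 lay between 1 and 10 TPM and 25 below 1 TPM. Slc36a1 was highest at 590 ± 91.1 TPM (SD over 6 libraries), followed by the vesicular glutamate carrier Slc17a7 at 362 ± 39.9 TPM. Next came Slc6a17 at 144 ± 12.9, Slc38a2 at 137 ± 17.6, Slc17a6 at 116 ± 12.5, Slc38a6 at 104 ± 13.9, Slc38a10 at 99.9 ± 12.9, Slc7a7 at 98.1 ± 8.71 and Slc6a15 at 91.9 ± 8.03 TPM. From Slc6a17 to Slc6a15 each gene's range over libraries overlapped that of the next. Within every library, though, Slc38a2 held more counts per base of the deposited length than Slc17a6, and Slc17a6 more than Slc38a6. The other adjacent pairs changed order between libraries. With the deposited lengths, genes further apart could be told apart. The lowest values of Slc6a17 and Slc38a2, 122 and 124 TPM, lay above the highest of Slc38a10, Slc7a7 and Slc6a15, 117, 112 and 106 TPM. The first place and the place of Slc38a2 rest on the length used. With the longest transcript of GENCODE M21, a choice made after seeing the data, Slc36a1 came to 261 TPM, level with Slc17a7 at 261 TPM. The length of Slc36a1 was then 5264 bases in place of 1950. Slc38a2, with 6116 bases in place of 4660, came to 124.6 TPM, beside Slc38a10 at 119.3 TPM and below Slc17a6 at 138.5 TPM. Slc6a19 stood at 19.4 TPM and Slc6a20a at 1.73 TPM.

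**Figure D4:**
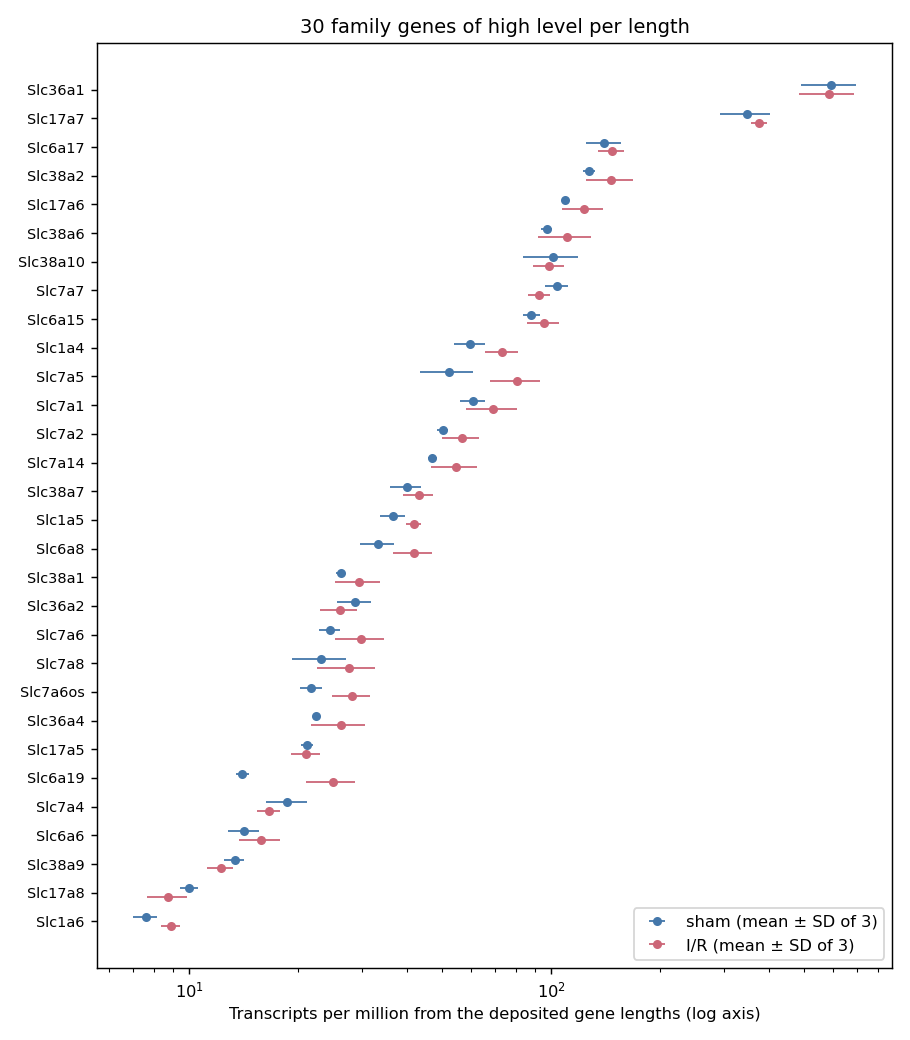
TPM from the deposited gene lengths, on a log axis, for 30 members of high level, with mean ± SD of the 3 sham libraries in blue and the 3 I/R libraries in red. Slc36a1 and Slc17a7 lead, and for most genes the bars of the groups overlap. Slc6a19, at 19.4 TPM over all libraries, has its I/R bar above its sham bar.

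Genes that work with these carriers were taken from 7 lists of enzymes, sensors and other carriers. The table held 96 of the listed genes, 91 of them tested, and 1, Nupr1, was called, lower in I/R. A share of 1 in 91 is near the 1.15% of all genes called. The median log2 fold change was -0.02, against 0.0001 over all genes. Of 17 tested genes of glutamate, glutamine and GABA metabolism none was called. The one with an unadjusted p under 0.05 was Glul, the glutamine synthetase of satellite glia, with 413, 427 and 426 CPM across sham 1 to 3 against 567, 515 and 501 CPM across I/R 1 to 3 (0.32 ± 0.09, adjusted p = 0.152 in edgeR's test).

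The list of genes induced by amino acid shortage through the transcription factor ATF4 held the 1 call. Of its 16 measured members edgeR's test called none higher and 1 lower, and 10 had a log2 fold change above 0. Nupr1, a stress-induced chromatin protein, fell by 1.16 ± 0.22 (log2), with adjusted p = 0.0374 in edgeR's test. Nupr1 lost its call whenever any library but I/R 1 was left out. Other members stood higher without passing, among them Cebpb, a transcription factor of the C/EBP family, at 1.63 ± 0.51 (adjusted p = 0.245), Vldlr, a lipoprotein receptor, at 0.58 ± 0.12 (adjusted p = 0.0668) and Chac1, a glutathione-degrading enzyme, at 0.56 ± 0.14 (adjusted p = 0.113). Vldlr was called by DESeq2 (adjusted p = 0.0052), by the robust fit (0.0409) and without the filter (0.00334), and Cebpb was called without the filter (0.0415). The list's median was 0.11, and Asns, asparagine synthetase, stood at 0.12 (adjusted p = 0.686).

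In the other lists, single genes came closest. Of 18 tested genes of arginine, creatine, polyamine and taurine metabolism none was called, with Odc1, which starts polyamine synthesis, at 0.34 ± 0.10 (adjusted p = 0.188 in edgeR's test) and Fmo1, a taurine-forming oxygenase, at -0.42 ± 0.10 (adjusted p = 0.101). None of 12 glycine, serine and one-carbon genes was called, and the lowest p belonged to Amt, of the glycine cleavage system (-0.38 ± 0.15, adjusted p = 0.389). None of 22 genes of amino acid sensing upstream of mTORC1 was called, and Sesn1, a leucine sensor relative, stood at 0.26 ± 0.09 (adjusted p = 0.308). Among the 9 other carriers tested, none was called. DESeq2 and limma-voom called no gene of these 4 lists or of the glutamate list, and edgeR gave 7 of their genes, Slc3a2 included, an unadjusted p under 0.05.

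ATF4 binds, with a partner of the C/EBP family, a composite element whose letters are TGATGNAA. Promoters of 48 of the 67 members are in the RefSeq table (GRCm38.p6), with 65 starts in all, and this motif was searched on both strands from 250 bases before to 50 after each start. It occurred at 5 of the 65 starts, 7.69%, against 3.97% of all 32851 promoters. A gene can have several starts, and a match in Slc7a7 was counted from more than a single start. Among tested members with a promoter in that table it lay in Slc1a4 and Slc7a7. Slc7a5 and Slc38a3 have no entry there and were not searched. Windows of 30 bases are shown because these genes differed in direction, with the motif or its reverse complement in capitals, 5′ to 3′ on the gene's strand.
Slc1a4, chr11:20332699-20332728, minus strand: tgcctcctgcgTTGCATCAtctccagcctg
Slc7a7, chr14:54418067-54418096, minus strand: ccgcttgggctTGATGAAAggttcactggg
Slc7a7, chr14:54417927-54417956, minus strand: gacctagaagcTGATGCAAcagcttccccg
All I/R values of Slc1a4 lay above sham and all I/R values of Slc7a7 below sham, and neither gene was called. The AP-1 motif TGANTCA occurred at 13.8% of the members' starts and 7.81% of all promoters, and the cAMP response motif TGACGTCA at 1.54% and 1.79%. None of the 3 motifs was found in the windows of Slc6a19 and Slc6a20a. A match in such a window is a description of letters and not a binding site.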

How the data were processed

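Per the labels' protocols, total RNA was isolated with TRIzol and made into stranded Illumina mRNA libraries. Tools listed in the submitters' processing notes are fastp, HISAT2 and StringTie, with the build GRCm39. How reads were counted, with which strand setting and annotation, is not stated in the labels. The deposited table gives expected counts per gene, not scaled to library size, and a gene length in bases. In each library 10.7% to 11.5% of its values were fractional, so they were rounded. The 525 genes without a symbol held 0.063% of all counts.

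All 6 libraries were fitted with edgeR 4.0.16 in R 4.3.3 (TMM, the package's filter on low counts, quasi-likelihood test, Benjamini-Hochberg adjustment over 16346 genes). Fold changes are I/R over sham. SE come from the F statistic, levels are CPM with TMM-scaled sizes, and SD are over 3 libraries. Run on simulated data, the steps above picked up 31.3% of genes altered 1.5-fold, 88.1% at 2-fold and 100% at 4-fold. The altered genes were drawn only from those of at least 1 CPM on average. Among the 158 genes reported there, 12 were false. Replicates of a group differed by more than sampling noise (chi-square per degree of freedom 4.11 to 30.5). DESeq2 1.42.0, limma-voom (limma 3.58.1) and other alternatives are in the closing section. Genes were named by rule: called members, those with an unadjusted p under 0.05, the 12 of highest level, the 2 of smallest p in each family, fixed transmitter carriers and, per partner list, called genes and the 2 of smallest p. Of the tested members 1 is counted but not reported here. Other genes were named after their values were seen. The members and lists were chosen with earlier results of these data known. Of the listed genes Aars1, Gars1, Sars1, Nars1 and Samtor were not found under those symbols. All listed cell markers were read, and 7 of 8 fibroblast and meningeal genes, 5 of 5 red cell genes, 1 of 6 satellite glia genes and 1 of 9 tested muscle genes were called, all lower, and none of the Schwann cell, endothelial, macrophage, neuron, spinal cord or lymphocyte genes.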

Additional observations from a re-analysis of the deposited data

How the results depend on the processing

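Over all genes, 188 were called. The count was 312 with DESeq2, 494 without a filter on low counts, 27 with the skeletal muscle level as a covariate, 32 with sham 2 alone, and 87 to 181 when single libraries were left out. Of the transporter genes 2 were called, 6 without the filter, 0 with the covariate, 0 with sham 2 alone and 1 to 2 with single libraries left out. Of the partner genes 1 was called, 2 with DESeq2, 2 with robust dispersion, 3 without the filter, 0 with the covariate, 0 with sham 2 alone and 0 to 1 with single libraries left out. The fit with sham 2 alone assumes that this library varies like the I/R libraries.

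With the replicate number as a replicate block, 63 genes, 0 transporter genes and 0 partner genes were called, and Slc6a19 had an adjusted p of 0.0571. Same-numbered libraries did not deviate together (correlations -0.106, 0.135 and -0.123), and only sham 2 correlated best with its own number. These are deviations from means of 3 libraries, so they cannot exclude that the numbers pair the mice.

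Over 16 alternatives for 28 named members, 415 of 446 values kept direction and side of the threshold. Signs turned only in genes that were not called. Values were 0.44 for Slc1a2 and -0.0036 for Slc6a17 with the covariate. With sham 2 alone they were -0.0049 for Slc17a7, 0.15 for Slc1a2 and -0.0416 for Slc6a17. With limma-voom Slc1a1 stood at 0.0011. Without single libraries the ranges were -0.0055 to 0.17 for Slc17a7, -0.10 to 0.10 for Slc1a1, -0.15 to 0.0556 for Slc36a1, -0.15 to 0.0542 for Slc38a10 and -0.0116 to 0.0906 for Slc6a17. The cause was not tested. The members' median log2 fold change was 0.08 to 0.14 over all fits.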

Other observations

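The length trend of I/R 3 is a value to look at again. The share of tested genes with their highest level in I/R 3 was 8.04% under 1500 bases, 16.7% from 1500 to just under 3000 bases and 36.8% from 3000 bases upward. Over the 27 tested transporter genes of 3000 bases or more, the log2 level in I/R 3 was 0.17 above the mean of I/R 1 and I/R 2 in the median.

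Gad2, a GABA-synthesizing enzyme outside the naming rule, measured 0.0982, 0 and 0 CPM across sham 1 to 3, against 0.445, 0.194 and 0.319 CPM across I/R 1 to 3. It had too few counts to be tested. Gad1, the other GABA-synthesizing enzyme, had means of 1.08 CPM (sham) and 0.731 CPM (I/R) with overlapping groups, a log2 fold change of -0.55 (adjusted p = 0.662 in edgeR's test). Slc32a1, which loads GABA into vesicles, had no counts in I/R.

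Pamr1, the neighbour of Slc1a2 and outside the naming rule, was called lower in I/R, with a log2 fold change of -1.13 (adjusted p = 0.0389 in edgeR's test).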
